A study of Mus musculus with 10 samples.

Results

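The KCNE family of auxiliary potassium channel subunits (Kcne1, Kcne2, Kcne3, Kcne4 and Kcne5) was examined together with Kcnq1 and Kcnh2, the pore channels with which these subunits assemble in the heart. The genes were chosen by name, and each was read from the brightest transcript cluster (the probe group of the array that stands for 1 gene) that named it alone. Each of the 7 genes had 1 such cluster, among 19938 genes with a cluster of their own. Kcne5 carries the older name Kcne1l on the array. The choice was made with the genotype differences of Kcne1 and Kcne5 already known, so the differences between genotypes below are a description of these samples.

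KCNE proteins cross the membrane once and carry no current themselves, but they set how fast and at which voltage a pore channel opens. Kcnq1 with Kcne1 forms the channel of the slow delayed rectifier current, and Kcnh2 forms that of the rapid delayed rectifier current, both of which return the cardiac muscle cell to its resting potential after a beat. Kcne3 holds Kcnq1 open in epithelia, Kcne4 and Kcne5 restrain Kcnq1, and Kcne2 has been paired with Kcnh2.

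The study measured RNA of E10.5 mouse hearts that lack the coxsackievirus and adenovirus receptor (CAR, gene Cxadr) against wild type (WT) hearts. The CAR KO group held 5 samples of CAR-deficient hearts and the WT group 5 samples of wild type hearts. Every sample was a pool of 3 untreated hearts at E10.5, from matings of CAR +/- mice, and the knockout line is global, so all cells of the heart and of the embryo lacked the gene. The labels do not say whether pools of a genotype came from separate litters, and p-values measure the spread between these samples only.

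Values are log2 signals as deposited. A gene was called when its adjusted p, from limma's moderated test with Benjamini-Hochberg adjustment over 28944 transcript clusters, was below 0.05. The background level was a log2 signal of 6.50, the 95th percentile of 1205 odorant and vomeronasal receptor clusters, genes that are not normally transcribed in heart. The number of arrays limits the precision. In pooled hearts, fewer cells of a type and less RNA per cell cannot be told apart. Array medians lay between 7.65 and 7.73, and all 18 cardiomyocyte markers were above background. Cxadr itself had 6.69, 6.56, 6.37, 6.47 and 6.23 in the 5 CAR KO samples, against 8.28, 8.25, 8.46, 8.66 and 8.24 in the 5 WT samples, and the genotypes did not overlap (log2 fold change -1.91, SE 0.10, adjusted p = 1.40e-05 by limma). Cxadr was the 1 cluster called, which is 0.00345% of the clusters tested.

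Promoters are shown for the member with the largest genotype difference and for a pore channel that differed little, to give their base composition. They are the 250 bases before the start in the RefSeq table (GRCm38.p6), 5′ to 3′ on the strand of the gene, with capitals for GGGCGG, the core of the SP1 motif, on either strand (CCGCCC on the other). The Kcne5 window is chrX:142306199-142306448 on the minus strand. The Kcnh2 window is chr5:24329592-24329841 on the minus strand, and it lies inside the annotated gene, before one of its internal starts.
Kcne5: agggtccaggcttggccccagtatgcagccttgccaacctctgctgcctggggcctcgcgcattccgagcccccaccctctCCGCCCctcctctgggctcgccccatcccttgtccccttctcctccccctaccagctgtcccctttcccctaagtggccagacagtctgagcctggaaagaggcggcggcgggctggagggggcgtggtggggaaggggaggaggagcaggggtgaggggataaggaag
Kcnh2: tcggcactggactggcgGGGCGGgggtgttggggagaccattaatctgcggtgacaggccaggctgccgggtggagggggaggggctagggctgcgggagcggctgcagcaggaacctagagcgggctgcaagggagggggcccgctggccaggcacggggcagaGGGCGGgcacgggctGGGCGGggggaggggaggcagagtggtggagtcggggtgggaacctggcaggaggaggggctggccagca
The Kcne5 window had a GC content of 68.0% with 9 CpG and 1 GGGCGG match, and the Kcnh2 window 73.6% with 14 CpG and 3 matches. Over 32851 promoters of the same length the median GC content was 52.4%, and 32.7% held GGGCGG on either strand. Neither window held TATAAA, the TATA box, on either strand, which 12.4% of all promoters held. Of the 7 genes, 5 had an entry in this table.

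Kcne5 and Kcne1 had the largest mean differences of the 7 members, both lower in CAR KO hearts, and neither was called. Kcne5 (chrX:142304753-142306198, GRCm38.p6), which restrains Kcnq1 channels, had log2 signals of 9.36, 9.56, 9.10, 9.40 and 8.36 in CAR KO samples, against 9.53, 9.90, 9.83, 9.84 and 9.63 in WT samples. In 4 of 5 CAR KO samples it was below the lowest WT sample, while CAR KO 2 lay within the WT range, and CAR KO 5 stood lowest of all. The means were 9.16 ± 0.47 in CAR KO and 9.75 ± 0.16 in WT (SD, n = 5 each), a log2 fold change of -0.59 (SE 0.19, 95% interval -1.01 to -0.18) or 1.51-fold lower. Its adjusted p was 1.

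Kcne1 (chr16:92346001-92359468), the subunit that slows Kcnq1 to the slow delayed rectifier, had log2 signals of 9.65, 9.66, 9.31, 9.62 and 9.17 in CAR KO samples, against 9.63, 9.83, 9.89, 9.89 and 9.76 in WT samples. All 5 CAR KO samples were below the WT mean and 3 were below the lowest WT sample, so the genotypes overlapped. Its means were 9.48 ± 0.23 in CAR KO and 9.80 ± 0.11 in WT (SD, n = 5 each), a log2 fold change of -0.32 (SE 0.10, 95% interval -0.54 to -0.09) or 1.25-fold lower, with an adjusted p of 1. Of the 7 members, 2 had an unadjusted p below 0.05, both lower in CAR KO (Kcne5 with 0.00935 and Kcne1 with 0.00962 by limma). The choice of the members rests on the same contrast, so nothing is read from this count. Of all clusters, 2.40% had an unadjusted p below 0.05, 1.43% in the lower direction, and 0 of the 7 members had genotypes that did not overlap, against 0.359% of all clusters, 0.238% in the lower direction.

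**Figure D1:**
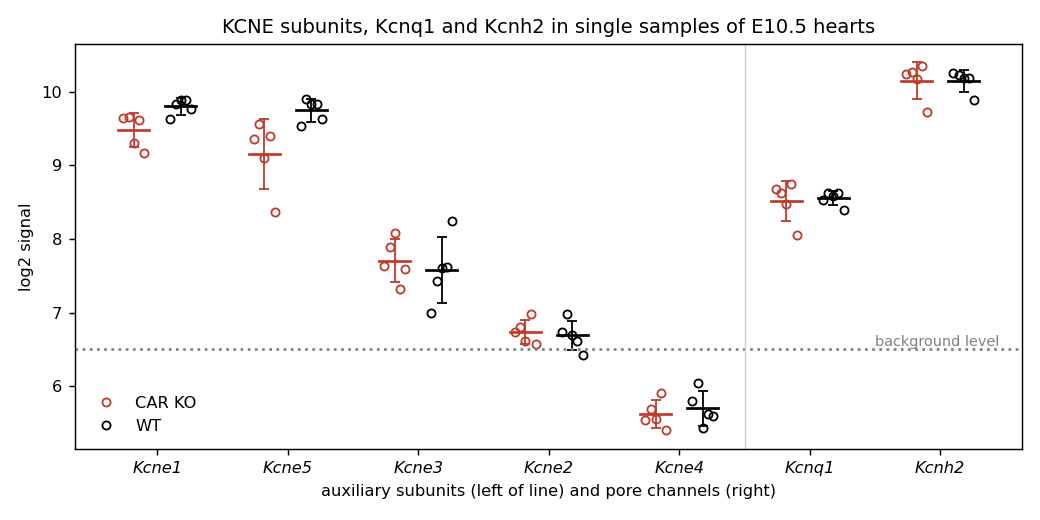
Log2 signal (vertical axis) of the 5 KCNE subunits, left of the vertical line, and the 2 pore channels, right of it, in single samples: CAR KO red and WT black, with horizontal lines at the mean and error bars of 1 SD (n = 5 each). The dotted line is the background level of 6.50, and Kcne5 in CAR KO 5 stands at 8.36, below every other sample.

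Kcnq1 and Kcnh2, the pore channels, had nearly the same mean in both genotypes. Kcnq1 (chr7:143106877-143427050) had log2 signals of 8.68, 8.63, 8.47, 8.75 and 8.06 in CAR KO samples, against 8.53, 8.63, 8.59, 8.63 and 8.40 in WT samples. Except for CAR KO 5, the samples of both genotypes lay close together. The means were 8.52 ± 0.28 in CAR KO and 8.56 ± 0.10 in WT (SD, n = 5 each), a log2 fold change of -0.04 (95% interval -0.29 to 0.22, adjusted p = 1 by limma).

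Kcnh2 (chr5:24319589-24351684), the ERG pore of the rapid delayed rectifier, had 10.24, 10.27, 10.17, 10.35 and 9.72 in CAR KO samples, against 10.26, 10.23, 10.19, 10.18 and 9.89 in WT samples. The sample numbered 5 was the lowest of each genotype, and the others overlapped. Its log2 fold change was 0.0032 (95% interval -0.25 to 0.26, adjusted p = 1 by limma), with means of 10.15 ± 0.25 in CAR KO and 10.15 ± 0.15 in WT (SD, n = 5 each). The lower ends of the intervals, -0.29 for Kcnq1 and -0.25 for Kcnh2, lay inside the interval of the Kcne1 difference. The transcript Kcnq1ot1, which runs antisense within Kcnq1, had no cluster of its own here, and the lncRNA gene Gm30163 overlaps Kcne1 and had none either.

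Kcne3, Kcne2 and Kcne4 differed between genotypes by less than the SD of either group. Kcne3 (chr7:100176507-100184869) had 7.63, 7.89, 8.08, 7.32 and 7.59 in CAR KO samples, against 6.99, 7.43, 7.60, 7.62 and 8.24 in WT samples. Its SD of 0.45 was the largest of the 7 members in WT, and all 5 CAR KO values lay inside the WT range (log2 fold change 0.12, 95% interval -0.32 to 0.57, adjusted p = 1 by limma).

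Kcne2 (chr16:92292389-92298133), which lies 47.9 kb from Kcne1 on the same chromosome, had 6.74, 6.80, 6.61, 6.98 and 6.57 in CAR KO samples, against 6.73, 6.98, 6.70, 6.61 and 6.43 in WT samples. Its signals stood just above the background level and 1 WT sample fell below it. Its log2 fold change was 0.05 (95% interval -0.18 to 0.28, adjusted p = 1 by limma).

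Kcne4 (chr1:78816911-78820032), an inhibitory partner of Kcnq1, had 5.54, 5.69, 5.56, 5.91 and 5.40 in CAR KO samples, against 5.80, 6.05, 5.43, 5.62 and 5.59 in WT samples. All 10 samples lay below the background level, so that its log2 fold change of -0.08 (95% interval -0.34 to 0.19, adjusted p = 1 by limma) is not a measure of its level. Over the 7 members the median log2 fold change was -0.038, against 0.0108 over all clusters, and 4 of 7 were below 0, against 43.9% of all clusters. All clusters include many dim ones, while 6 of the 7 members were above background. Of the 14688 genes above background, 50.1% were below 0.

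Kcne2 and Kcne4 also followed the array background. The mean signal of the receptor clusters correlated across the 10 samples, after removal of the genotype means, with Kcne4 (Pearson r 0.92, permutation p = 3.70e-04, adjusted 0.0197; Spearman rho 0.84, permutation p = 0.00411, adjusted 0.0769) and with Kcne2 (r 0.91, permutation p = 6.50e-04, adjusted 0.0197; rho 0.93, permutation p = 0.00107, adjusted 0.0487). Without the 2 samples farthest from the median the r were 0.80 and 0.90. The relation was not particular to these dim genes. Kcnh2 had r 0.74 (permutation p = 0.0215, adjusted 0.0964) and rho 0.88 (permutation p = 0.00441, adjusted 0.0769). Kcnq1 had r 0.72 and rho 0.78, Kcne5 0.65 and 0.72, Kcne1 0.53 and 0.60, and Kcne3 -0.49 and -0.52. None of these passed the adjustment. All are among 91 relations between a member and a list, and both sides come from the same arrays.

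**Figure D2:**
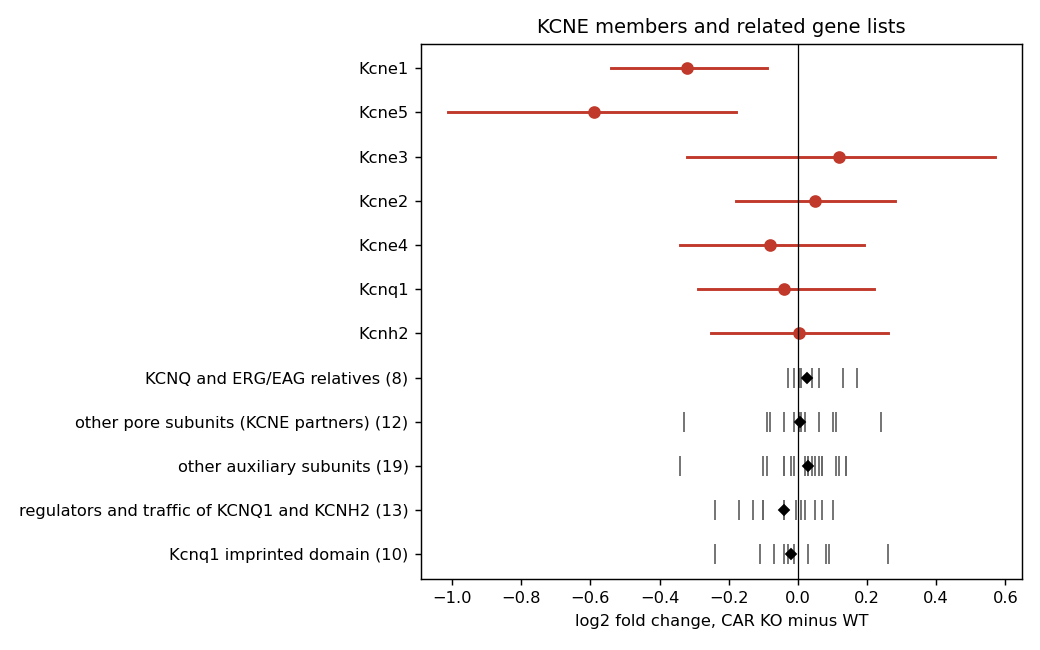
Log2 fold change (CAR KO minus WT, horizontal axis) of each member, as a point with its 95% interval, and of the genes of 5 related lists, as ticks with the list's median as a diamond; the number of genes measured stands beside each list. The intervals are not adjusted for the number of clusters. Kcne5 at -0.59 and Kcne1 at -0.32, chosen with this contrast known, have intervals that leave out 0. The list medians lie between -0.04 and 0.03, and single genes of the lists between -0.34 and 0.26.

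The subunits were also set against the pore channel of the same sample, a ratio chosen after the values were seen and given with no test. Relative to Kcnq1, with the WT mean at 0, Kcne5 had -0.51, -0.26, -0.55, -0.55 and -0.89 in CAR KO samples, against -0.19, 0.08, 0.05, 0.01 and 0.04 in WT samples. On this scale every CAR KO sample lay below every WT sample, as for 0.138% of all clusters set against Kcnq1 in this direction. Kcne1 relative to Kcnq1 had -0.28, -0.21, -0.40, -0.38 and -0.14 in CAR KO samples, against -0.14, -0.05, 0.06, 0.02 and 0.12 in WT samples. Here 4 of 5 CAR KO samples were below the lowest WT sample, and CAR KO 5, the lowest sample in Kcne1 itself, was the highest of its group in the ratio. Set against Kcnh2, the cardiomyocyte marker mean or the endothelial and endocardial marker mean, Kcne5 was below the lowest WT sample in 4 of 5 CAR KO samples, with means of -0.59, -0.57 and -0.53, and the genotypes overlapped. Kcne1 was below the lowest WT sample in 2, 3 and 4 of 5 CAR KO samples on these scales, with means of -0.32, -0.30 and -0.25, and the genotypes overlapped as well. Of all clusters set against the same measures, 0.100%, 0.107% and 0.0691% were without overlap in the lower direction. Kcne5 and Kcne1 were chosen with their genotype differences known, so nothing is read from these shares or from that against Kcnq1.

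Several members varied together across samples. After removal of the genotype means, Kcne1 and Kcne5 correlated with r 0.91 (permutation p = 0.00131, adjusted 0.0275) and rho 0.92 (permutation p = 0.00345, adjusted 0.0385), and r was 0.92 without CAR KO 3 and CAR KO 5, the 2 samples farthest from the median. Kcne5 and Kcnq1 correlated with r 0.93 (permutation p = 0.00849, adjusted 0.0526) and rho 0.92 (permutation p = 0.0055, adjusted 0.0385), with r 0.87 without the 2 farthest samples. Kcnq1 and Kcnh2 correlated with r 0.94 (permutation p = 0.00422, adjusted 0.0443) and rho 0.82 (permutation p = 0.0245, adjusted 0.0966), and r was 0.72 without the 2 farthest samples. These 3 of 21 pairs had the highest r over all 10 samples, and each pair was read from the same arrays. By rho, or without the 2 farthest samples, Kcnq1 and Kcnh2 were not among the 3 closest. Kcne1 with Kcnq1 had a rho of 0.90 (permutation p = 0.0141, adjusted 0.0742) and Kcne2 with Kcnh2 one of 0.84 (permutation p = 0.00434, adjusted 0.0385). Kcne2 and Kcnh2 also varied with the receptor clusters. The part of this in their pair, and in the marker relations of Kcnh2 below, was not tested.

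**Figure D3:**
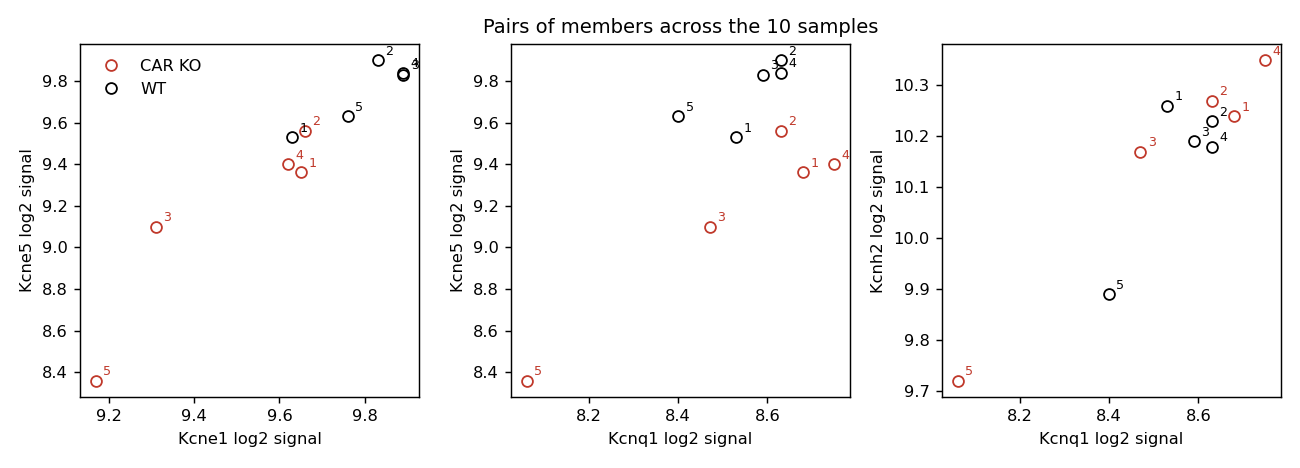
Log2 signals of 3 pairs of members, 1 point per sample with its number, CAR KO red and WT black. CAR KO 5 is the lowest point in each panel, and in the middle panel the CAR KO samples lie below the WT samples at a like Kcnq1 signal.

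The pore channels were compared with the marker lists in the same way. Kcnh2 correlated with the mean of 18 cardiomyocyte markers (r 0.98, permutation p = 0.00224, adjusted 0.0338; rho 0.87, permutation p = 0.00434, adjusted 0.0769) and with the mean of 10 endothelial and endocardial markers (r 0.97, permutation p = 0.00184, adjusted 0.0338; rho 0.87, permutation p = 0.00866, adjusted 0.0896). It ran against cushion mesenchyme markers (r -0.92, permutation p = 4.70e-04, adjusted 0.0197; rho -0.84, permutation p = 5.00e-04, adjusted 0.0455) and foregut epithelial markers (r -0.84, permutation p = 0.0026, adjusted 0.0338; rho -0.75, permutation p = 0.0208, adjusted 0.145). Kcnq1 correlated with the endothelial and endocardial markers (r 0.97, permutation p = 0.00199, adjusted 0.0338; rho 0.90, permutation p = 0.00507, adjusted 0.0769). Kcnq1 with the cardiomyocyte markers did not pass the adjustment (r 0.92, permutation p = 0.00584, adjusted 0.0594; rho 0.75, permutation p = 0.0338, adjusted 0.182). Without the 2 farthest samples, CAR KO 5 and WT 5, the r of Kcnh2 were 0.72 with cardiomyocyte, 0.80 with endothelial, -0.68 with cushion and -0.57 with foregut markers, and those of Kcnq1 were 0.85 with endothelial and 0.64 with cardiomyocyte markers. These relations were not particular to the pore channels. With endothelial and endocardial markers the r was 0.88 for Kcne5, 0.77 for Kcne1, 0.77 for Kcne2, 0.59 for Kcne4 and -0.38 for Kcne3. With cardiomyocyte markers it was 0.82, 0.70, 0.64, 0.43 and -0.38 in the same order. None of these subunit relations passed the adjustment.

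The genes whose pattern over the 10 samples was most like a member's, by r after removal of the genotype means among the other genes above background (14687, or 14688 for Kcne4, which is not itself above it), were named for 5 members. For Kcnq1 they were Pdlim3 (r 0.996), Myl3 (0.995), Cav3 (0.992), Diras2 (0.992) and Clip4 (0.987). For Kcnh2 they were Hspb3 (0.992), the cardiac transcription factor gene Nkx2-5 (0.987), Hspb1 (0.986), Cers4 (0.983) and Slc47a1 (0.981). Myl3 is a ventricular myosin light chain and Cav3 the muscle caveolin.

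For Kcne5 they were Btg2 (r 0.990), Marveld1 (0.989), Gadd45b (0.982), the cardiac kinase gene Tnni3k (0.982) and Tm4sf1 (0.981). For Kcne1 they were Aldh1l2 (0.984), Slit2 (0.977), Fgf1 (0.976), Acy3 (0.970) and Fbln2 (0.968). For Kcne4, which was below background, they were Sp5 (0.978), Prss51 (0.976), Grifin (0.974), Bdkrb1 (0.973) and Baiap3 (0.973). No gene stood in more than 1 of these 5 lists. No likeness r was recomputed without the samples farthest from the median. In Kcne5, CAR KO 5 stood at -1.39 from the WT mean and the next sample, CAR KO 3, at -0.64, so 1 sample weighs heavily in its r. In Kcnq1, CAR KO 5 stood at -0.50 and the next lowest sample, WT 5, at -0.16. In Kcnh2 they stood at -0.43 and -0.26. The samples numbered 5 therefore weigh heavily in the r of the pore channels too.

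CAR KO 5 stood apart in several other readouts, some of them shared by WT 5. The mean of the Y-linked genes Kdm5d, Eif2s3y and Uty was 7.49, 7.75, 8.68, 7.25 and 4.81 in CAR KO samples, against 8.25, 8.11, 8.85, 8.32 and 8.23 in WT samples, with the receptor clusters at 4.76 to 5.00 in all samples. The Y-linked difference was not confined to CAR KO 5: in each of the 3 genes, 4 of 5 CAR KO samples were below the lowest WT sample. Uty had a log2 fold change of -1.32 (unadjusted p = 0.042 by limma). Xist, transcribed from the X chromosome, averaged 9.79 in CAR KO and 9.21 in WT (unadjusted p = 0.0854 by limma). None of these was called, and the labels do not give the sex of the embryos. The liver and yolk sac marker mean of CAR KO 5, 9.67, was the highest of the 10 samples, and that of WT 5, 8.83, the highest in WT. CAR KO 5 and WT 5 also had the highest cushion mesenchyme (10.67 and 10.57) and foregut (8.50 and 8.41) means of their genotype. Their endothelial and endocardial means (10.76 and 10.97) were the lowest. Epicardial markers had means of 9.85, 10.13, 9.92, 9.71 and 9.62 in CAR KO samples, against 9.97, 10.07, 10.17, 10.20 and 10.01 in WT samples. In 4 of 5 CAR KO samples this mean was below the lowest WT sample. Of its genes, 8 of 8 had a log2 fold change below 0, against 50.1% of all genes above background. At an unadjusted p below 0.05 by limma, 4 were lower (Upk3b -0.46, Aldh1a2 -0.57, Tbx18 -0.31 and Upk1b -0.22), against 2.14% of all genes above background. None was called, the list was chosen with earlier results known, and no set test was run.

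Without CAR KO 5 the log2 fold changes were -0.39 for Kcne5 and -0.24 for Kcne1 (adjusted p = 0.939 for both by limma). With the epicardial mean as a covariate they were -0.21 for Kcne5 and -0.16 for Kcne1, and with the Y-linked mean -0.30 and -0.22, both covariates added after seeing the data. Under each of these 2 covariates the count of members with an unadjusted p below 0.05 by limma was 0, against 2 without them. Both means were themselves lower on average in CAR KO, so covariate and genotype overlap in these fits. With the planned cardiomyocyte covariate the log2 fold changes were -0.55 for Kcne5 and -0.30 for Kcne1. With the planned liver and yolk sac covariate they were -0.61 and -0.32. Under both planned covariates the count stayed at 2. Kcne5 and Kcne1 make up the count of 2 and were chosen with this contrast known, so nothing is read from these counts. The part of these markers in the differences was not tested.

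**Figure D4:**
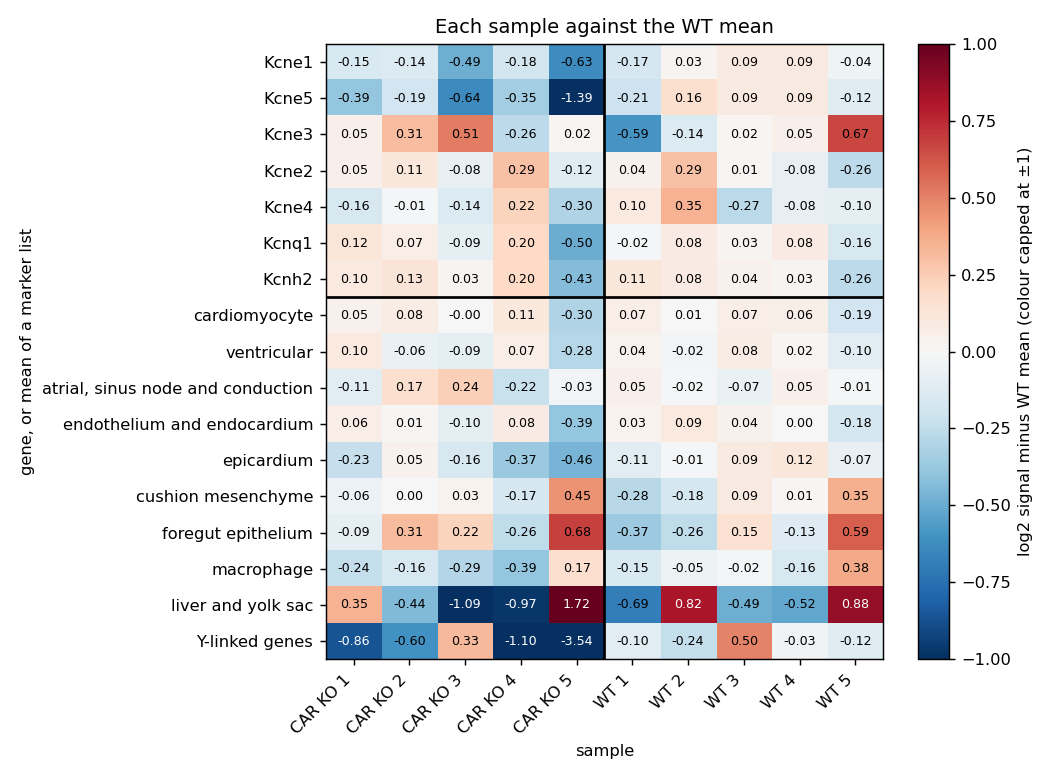
Log2 signal of each member (upper block) and mean of each marker list (lower block) minus the WT mean, CAR KO samples left and WT samples right; the colour scale is capped at ±1. CAR KO 5 is low in Kcne5 (-1.39), Kcne1 (-0.63), Kcnq1 (-0.50) and Kcnh2 (-0.43).

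Of the other genes on the lists around these channels, none was called. Among the KCNQ, ERG and EAG relatives of the pore channels, 8 of 11 were measured, 0 had an unadjusted p below 0.05, and the brightest, Kcnq5, averaged 9.96 in CAR KO and 9.95 in WT. The ERG relative Kcnh7 averaged 8.67 in CAR KO and 8.50 in WT (unadjusted p = 0.172 by limma). Among the other pore subunits that KCNE proteins modify in expression systems, 12 of 15 were measured and 1 had an unadjusted p below 0.05 (Ano1, a calcium-activated chloride channel). Ano1 averaged 9.55 ± 0.26 in CAR KO and 9.88 ± 0.08 in WT (SD, n = 5 each), a log2 fold change of -0.33 (SE 0.11, adjusted p = 1 by limma), and all 5 CAR KO samples were below the WT mean. Hcn4, the pacemaker channel, averaged 11.29 in CAR KO and 11.23 in WT.

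The other auxiliary subunits of voltage-gated potassium channels (19 of 19 measured), the regulators of KCNQ1 and KCNH2 (13 of 14) and the imprinted domain that holds Kcnq1 (10 of 11) had 0 genes with an unadjusted p below 0.05, and median log2 fold changes of 0.03, -0.04 and -0.02. Kcng2, a silent pore subunit, averaged 10.36 in CAR KO and 10.46 in WT, and Kcnip3 9.59 in CAR KO and 9.48 in WT. The genes with the smallest p of these lists were Kcnf1 (log2 fold change 0.14), Alg10b (-0.13) and Osbpl5 (-0.24). Ppp1ca, a catalytic subunit of protein phosphatase 1, differed by 0.01, and Cd81 by -0.04. Nedd4l, a ubiquitin ligase that removes KCNQ1 from the membrane, averaged 10.99 in CAR KO and 11.09 in WT. Cdkn1c, the imprinted cell cycle inhibitor near Kcnq1, averaged 12.97 in CAR KO and 13.08 in WT.

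Kcne1 and Cxadr lie on chromosome 16, 14.0 Mb apart, so the neighbours were examined. Of the genes within 250 kb of Kcne1 that were measured, Mrps6 (log2 fold change 0.07), Kcne2 (0.05), Smim11 (0.01), Rcan1 (-0.17), Clic6 (0.11) and Runx1 (-0.10) were above background and none was called by limma. Around Kcne5 these were Nxt2 (-0.05) and Acsl4 (0.04). Within 20 Mb of Cxadr, 2 of 108 other genes above background had an unadjusted p below 0.05 and were lower in CAR KO, Jam2 (-0.35) and Kcne1, which is 1.85% against 2.14% of all genes above background. On chromosome X, which holds Kcne5, the share was 2.39%. Kcne1 and Kcne5 are counted in these shares and were chosen with this contrast known, so nothing is read from the shares.

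**Figure D5:**
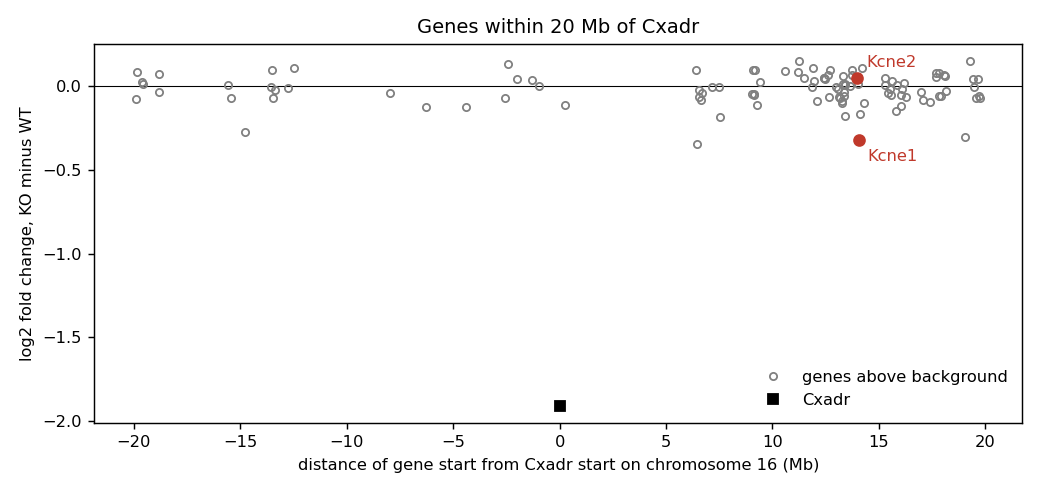
Log2 fold change (CAR KO minus WT, vertical axis) of genes above background by the distance of their start from that of Cxadr on chromosome 16 (horizontal axis, Mb). Cxadr is the square at -1.91, and Kcne1 at -0.32 and its neighbour Kcne2 at 0.05 are in red.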

How the data were processed

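RNA of 10 samples (3 pooled hearts each) was hybridised to Affymetrix Mouse Gene 1.0 ST arrays with the WT PLUS kit, per the study's methods. The deposited values are log2 signals per transcript cluster, made by the authors; the submitters' processing notes name MAS5, and the normalization and genome build are not given in the sources used here. Of 35556 clusters, 6612 control clusters were left out. Names came from the platform annotation: 21789 clusters name 1 gene, 1621 several and 5534 none, and 21698 were matched to RefSeq GRCm38.p6 by Entrez ID. No further normalization and no filter on dim clusters was applied.

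The test was limma's (version 3.58.1, run under R 4.3.3; lmFit and eBayes, genotype as the only term), with Benjamini-Hochberg adjustment over 28944 clusters, and the fit was tested on simulated data first. Correlations used residuals from the genotype means, with 100000 permutations within genotype and adjustment over 21 or 91 relations. Named genes are the 7 members, Cxadr, per list the 2 brightest genes and that with the smallest p, the 5 genes most like each of 5 members, and the neighbours within 250 kb. The members and all lists were chosen with earlier results of these data known. The alternatives were other centring, filters, array weights, covariates, a replicate block, the methods' t-test and leaving out samples.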

Additional observations from a re-analysis of the deposited data

Results flagged for a closer look

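In 2 of 16 groups, the 5 samples of 1 gene in 1 genotype, the lowest sample stood farther from its nearest neighbour than Dixon's 95% limit allows, and chance gives about 1 in 20 (0.8 of 16). Both were Kcnh2 and both were the sample numbered 5: CAR KO 5 at 9.72, a gap of 0.725 of its group's range, and WT 5 at 9.89, a gap of 0.788. Both samples also had the lowest cardiomyocyte marker means of their genotype (12.60 in CAR KO 5 and 12.71 in WT 5), and the part of this in the Kcnh2 values was not tested.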

How the results depend on the processing

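Over 25 alternatives, 3 of them added after seeing the data, the members called stayed at 0 and Cxadr stayed called (log2 fold change -1.97 to -1.84 without 1 sample). Kcne5 ranged between -0.69 and -0.21 and Kcne1 between -0.36 and -0.16, and neither was reversed. Leaving out 1 sample gave -0.69 to -0.39 for Kcne5 and -0.36 to -0.24 for Kcne1, and changed direction in the others: Kcnh2 -0.06 to 0.11, Kcnq1 -0.10 to 0.08, Kcne4 -0.15 to 0.01, Kcne2 -0.02 to 0.12 and Kcne3 -0.02 to 0.29. Kcnh2 was also reversed with median centring (-3.24e-03) and with the liver covariate (-0.01). Kcnq1 was reversed with array weights (0.02), without the 3 or 4 samples highest in Alb (0.05 and 0.03), without both samples numbered 5 (0.04) and with the epicardial or Y-linked covariate (0.12 in each). Kcne4 was reversed without the 3 or 4 samples highest in Alb (0.06 and 0.11). The cause of these changes was not tested.

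The count of clusters called was 1, or 2 with array weights. The count with an unadjusted p below 0.05, 696, was 1811 with array weights, 1179 with the cardiomyocyte covariate, 1214 and 1592 without the 3 or 4 samples highest in Alb, and 411 to 1029 when 1 sample was left out, the lowest without WT 4. With the replicate number as a block it was 1304, Kcne5 was -0.59 and Kcne1 -0.32 (adjusted p = 0.969 for both by limma), and no call of a member changed. The count of members with an unadjusted p below 0.05 was 2, except for 0 with the epicardial or the Y-linked covariate. Nothing is read from this count, since the members were chosen with this contrast known. Deviations of same-numbered samples correlated by 0.20, 0.47, 0.33, 0.07 and 0.56, and for 4 of 5 CAR KO samples the WT sample of the same number was the closest, a hint from the data that numbers may mark something shared. The labels do not say so, and pair 4 was below 0.1, so the samples are not treated as paired, and permutations for the correlations do not take the numbers into account. With the block the SE of Kcnh2 was 0.06, against 0.12 without it. Each member had 1 cluster, so another cluster of the gene could not be tried, and the dim filter left no value for Kcne2 and Kcne4. Precision is limited by 5 arrays per genotype.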

Other observations

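The relation of Kcne3 to foregut epithelial markers did not pass the adjustment over 91 relations, and the likeness of Kcne2 and Kcne3 to other genes was examined outside the rule for named genes. The mean of 10 foregut epithelial markers was 7.73, 8.13, 8.04, 7.56 and 8.50 in CAR KO samples, against 7.45, 7.56, 7.97, 7.69 and 8.41 in WT samples. Of its genes, 8 of 10 had a log2 fold change above 0, with 0 called, while 50.1% of all genes above background were below 0. Kcne3 correlated with this mean with r 0.72 (permutation p = 0.0341, adjusted 0.135) and rho 0.70 (permutation p = 0.0435, adjusted 0.21), and with r 0.43 without the 2 farthest samples and 0.90 without CAR KO 5 alone. The relation was not particular to foregut markers. Without CAR KO 5, Kcne3 had r 0.88 with cushion mesenchyme and 0.75 with macrophage markers. Without the 2 farthest samples it had r 0.93 with atrial, sinus node and conduction markers and 0.67 with epicardial markers. The genes most like Kcne3 were Sdr39u1 (r 0.933) and Foxp2 (0.923), and those most like Kcne2 were the odorant receptor gene Olfr550 (0.985) and Cldn14 (0.981).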
